A study of Mus musculus with 12 samples.

Results

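Granzymes are serine proteases and perforin is the pore-forming protein of the cytotoxic granules of T and NK cells. The 10 genes described here are Gzma, Gzmb, Gzmc, Gzmd, Gzme, Gzmf, Gzmg, Gzmk, Gzmm and Prf1, taken by symbol from the 31053 genes of the scRNA-Seq count matrix. The matrix holds CD45+ cells isolated with microbeads from subcutaneous MC38 tumors, a mouse colon adenocarcinoma line, of 12 C57BL/6 mice on day 17 after implantation. All mice carried the same tumor and were dosed daily under the skin, 3 with vehicle for 7 days, 3 with the EZH2 inhibitor (EZH2i) PF-06821497 at 100 mg/kg for 7 days, 3 with vehicle for 16 days and 3 with EZH2i at 100 mg/kg for 16 days. Ages were not given, and the methods name female mice. Barcodes carry a number, 1 to 12, for their library, but no sample label names these numbers, and libraries were not assigned to mice or groups by their order or cell numbers. Levels of the genes were therefore described over the pooled libraries and library by library, and EZH2i was not compared with vehicle here. The library numbers may still follow the treatment groups, so differences between libraries may include those between treatments.

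When a cytotoxic lymphocyte meets its target, the granules fuse with the membrane at the contact, perforin opens pores in the target cell and granzymes enter its cytosol. Granzyme B cleaves after aspartate and activates caspases, whereas granzymes A and K cleave after basic residues. Granzymes C to G are rodent proteases encoded beside granzyme B, and granzyme M, which is known best from NK cells, cleaves after methionine or leucine.

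The 10 genes lie on 3 chromosomes of the mouse genome (GRCm38, GENCODE M21 gene bounds). Gzmb (chr14:56258838-56262260), Gzmc (chr14:56231441-56234656), Gzmf (chr14:56205263-56211417), Gzmg (chr14:56156582-56159579), Gzmd (chr14:56129556-56132608) and Gzme (chr14:56117626-56120625) are all on the minus strand, within 145 kb that also holds Gzmn. Gzmk (chr13:113171608-113225908) and Gzma (chr13:113093825-113100981) are neighbours on the minus strand of chromosome 13. Prf1 (chr10:61297833-61304680) and Gzmm (chr10:79689020-79695261) are on the plus strand of chromosome 10. As the levels below divided these genes by cell type, the 250 bases before the RefSeq gene start (GRCm38.p6) are printed for the 6 genes with the most UMIs in CD8+ T cells. They run 5′ to 3′ on the strand of the gene, and capitals mark matches on either strand to the letters TGTGGT (RUNX), TGANTCA (AP-1), TCACACC (T-box) or TGACGTCA (CRE).
Prf1, chr10:61297586-61297835, plus strand: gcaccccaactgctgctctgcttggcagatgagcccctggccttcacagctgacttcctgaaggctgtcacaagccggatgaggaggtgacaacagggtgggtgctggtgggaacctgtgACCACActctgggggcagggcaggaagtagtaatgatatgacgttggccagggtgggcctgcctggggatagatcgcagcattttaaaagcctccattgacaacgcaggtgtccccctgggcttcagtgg
Gzmb, chr14:56262335-56262584, minus strand: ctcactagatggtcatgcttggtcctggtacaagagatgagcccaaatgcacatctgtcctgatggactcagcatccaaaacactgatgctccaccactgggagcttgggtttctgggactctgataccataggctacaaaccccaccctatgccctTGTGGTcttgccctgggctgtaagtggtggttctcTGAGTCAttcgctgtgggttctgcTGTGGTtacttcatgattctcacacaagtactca
Gzma, chr13:113100982-113101231, minus strand: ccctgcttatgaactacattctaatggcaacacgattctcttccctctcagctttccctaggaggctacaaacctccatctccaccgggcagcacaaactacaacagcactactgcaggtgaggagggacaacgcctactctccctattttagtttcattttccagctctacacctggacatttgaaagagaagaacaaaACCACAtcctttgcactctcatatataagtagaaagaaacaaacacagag
Gzmk, chr13:113180966-113181215, minus strand: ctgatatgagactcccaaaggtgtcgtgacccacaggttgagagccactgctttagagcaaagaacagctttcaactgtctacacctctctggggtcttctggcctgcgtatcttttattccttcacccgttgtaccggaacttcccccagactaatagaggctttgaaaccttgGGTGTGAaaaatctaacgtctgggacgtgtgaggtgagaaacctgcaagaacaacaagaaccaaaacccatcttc
Gzmc, chr14:56234658-56234907, minus strand: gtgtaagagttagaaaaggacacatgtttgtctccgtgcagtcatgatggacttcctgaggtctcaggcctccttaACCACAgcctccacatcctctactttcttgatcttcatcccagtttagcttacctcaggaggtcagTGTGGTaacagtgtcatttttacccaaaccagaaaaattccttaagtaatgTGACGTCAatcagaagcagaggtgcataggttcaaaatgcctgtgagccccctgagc
Gzmf, chr14:56211408-56211657, minus strand: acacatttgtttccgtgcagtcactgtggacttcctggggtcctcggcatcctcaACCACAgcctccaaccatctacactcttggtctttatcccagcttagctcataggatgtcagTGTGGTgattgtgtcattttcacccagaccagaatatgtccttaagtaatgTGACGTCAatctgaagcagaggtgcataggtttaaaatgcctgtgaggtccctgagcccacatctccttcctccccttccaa

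The RUNX letters stood in the windows of 9 of the 10 genes, all but Gzmk, against 14.05% of 32851 RefSeq windows of this length. Gzmb alone held the AP-1 letters (6.75% of all windows), 58 bases before its start and between RUNX matches 93 and 34 bases before it. Gzmk held the T-box letters 75 bases before its start, and Gzmm held them in its second window (3.33% of all windows). The RefSeq window of Gzmk lies inside its GENCODE bounds, so its start differs between the annotations. Its T-box match and its lack of RUNX letters hold for the RefSeq start alone. The CRE letters stood in the windows of Gzmc, Gzmf and Gzmg (1.55% of all windows), 57, 82 and 77 bases before the start. No match overlapped another. The windows of Gzmc to Gzmg are related in sequence, up to 94.8% identity between Gzmd and Gzme and 82.2% between Gzmf and Gzmg, so their matches are not independent of each other. Outside these genes the highest identity was 50.4%, between Gzmb and Gzmm. These matches describe letters in a window and were not tested for binding.

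Of 140639 barcodes, 128912 were kept (over 200 and under 5000 genes, at most 10% mitochondrial UMIs), and 5072 of them (3.93%) fell into 5 lymphocyte gates defined by UMIs of lineage genes. The gates held 3771 CD8+ T cells, 758 CD4+ T cells without Foxp3, 37 Foxp3+ T cells, 88 gamma delta T cells and 418 NK cells. Libraries differed in depth, from a median of 2291 to 15081 UMIs per kept cell. Libraries 1 to 6 held Y-linked UMIs and libraries 7 to 12 held none, although the methods name female mice. Xist, which is expressed from an inactive X chromosome, was at most 0.0592 CPM in libraries 1 to 6 and 658 to 870 CPM in libraries 7 to 12. Libraries shared 2261 of 138353 barcode sequences (1.63%), and 3 of 5069 where gated barcodes were compared with each other alone. The second share falls with the number of barcodes compared, so it does not show less sharing in the gates. Library 6 gave 28.6% of the CD8+ T cells and library 5 gave 37.3% of the NK cells.

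The gates held markers that had not been used to define them. In NK cells, Eomes was found in 31.8% and the NK receptor gene Klra4 in 33.0% of the cells. The 5 NK genes that were checked all had UMIs, and 83.5% of NK cells held a UMI of this list. The innate lymphoid genes Il7r, Cd200r1 and Gata3 also had UMIs, in 22.7% of NK cells together (142 CPM). Whether the NK gate held other innate lymphoid cells was not tested. Of 7 T cell genes that were checked, 6 had UMIs in NK cells, and 82.5% of NK cells held a UMI of this list. Within it, Cd5 had no UMI and Trac was found in 5.98% of NK cells. The list summed to 822 CPM in NK cells, against 2986 CPM in CD8+ T cells. Whether these UMIs came from T cells or were transcribed by the NK cells was not tested. In the Foxp3+ T cells, Ikzf2 and Ctla4 were each found in 91.9% of cells. In the gamma delta gate, Tcrg-C1 was found in 30.7% and Trdv4 in 18.2% of the cells, but the beta chain gene Trbc2 was found in 63.6%, so this gate is less certain. Macrophage RNA reached every gate. The 6 macrophage genes on the list, all detected, summed to 2330 counts per 1e6 UMIs (CPM) in CD8+ T cells (630 to 7489 over libraries) and 2084 CPM in NK cells (591 to 6863), against 42738 CPM in macrophages. Macrophages themselves held at most 2.33 CPM of any member in the pool, and at most 12.9 CPM in any library (Gzmc in library 5). Without cells holding UMIs of the macrophage genes C1qa, C1qb or C1qc, the same 8 members stayed above background in CD8+ T cells and the same 8 in NK cells as described next, but gamma delta T cells held no Gzma, and 7 in place of 3 members were called higher in NK than in CD8+ T cells. A call needed every library with at least 30 cells of both gates. The 7 included Gzmg, which NK cells held in libraries 5 and 6 alone, so no other library entered this check.

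NK cells and CD8+ T cells each expressed 8 of the 10 genes above the background, but not the same 8. A gene counted as above background where the lower end of its 95% Poisson interval exceeded the upper ends in B cells, macrophages and neutrophils. B cells held a UMI of a member in at most 0.993% of 302 cells (median 1336.5 UMIs per cell), and macrophages in at most 0.643% of 59446 cells (median 7684 UMIs). CD8+ T cells (median 2918 UMIs) expressed all but Gzmg and Gzmm, and NK cells (median 2721.5 UMIs) all but Gzmk and Gzmm. In NK cells, Gzmd, Gzme, Gzmf and Gzmg rested mainly on libraries 5 and 6. These held 674 and 83 of 770 UMIs of Gzmd and 309 and 40 of 361 of Gzme. Of Gzmf they held 1182 and 78 of 1261 UMIs, and of Gzmg 231 and 10 of 241. CD4+ T cells (median 3280.5 UMIs) expressed Gzma, Gzmb, Gzmk and Prf1, gamma delta T cells (median 1717 UMIs) Gzma and Gzmb, and Foxp3+ T cells (median 4613 UMIs) Gzmb. Gzmc in CD4+ T cells missed this limit against the neutrophils, where 1 barcode held all of its 122 UMIs, and would have passed against B cells and macrophages alone. The upper ends in B cells, from 0 to 3 UMIs, were wide (6.62 CPM from 0 UMIs), and against macrophages and neutrophils alone all 10 members in CD8+ T cells, 9 in NK cells and 4 in gamma delta T cells would have passed. All intervals cover counting error only, and UMIs that lie in few cells make them too narrow.

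**Figure D1:**
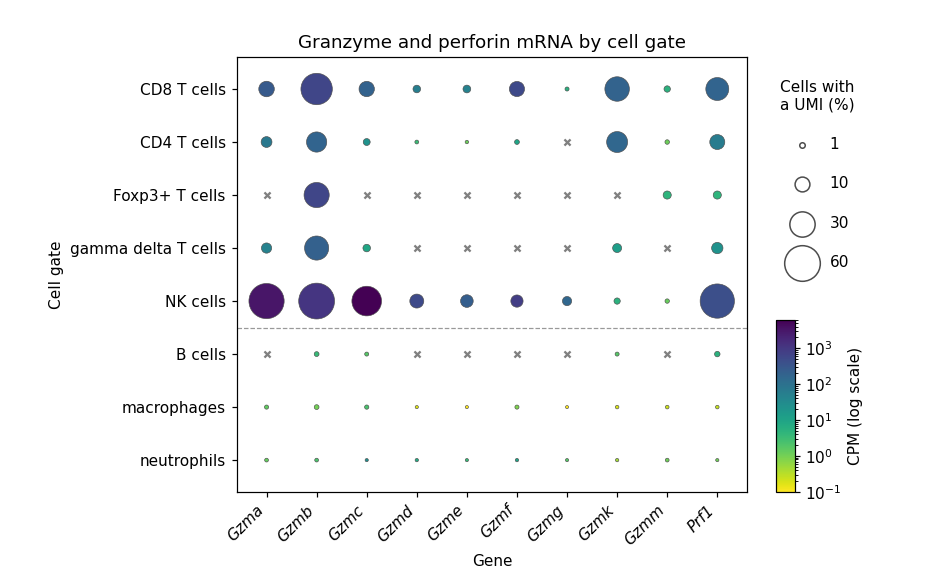
Dot plot of the 10 genes (x axis) in the 5 lymphocyte gates above the dashed line and the 3 background gates below it (y axis), pooled over 12 libraries. Dot area is the percentage of cells with a UMI, colour is CPM of summed UMIs on a log scale, and a cross marks 0 UMIs. Gzma, Gzmb, Gzmc and Prf1 had their largest and darkest dots in NK cells, Gzmk in CD8+ and CD4+ T cells, and the background gates stayed at or below 0.993% of cells.

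Prf1, which encodes perforin, was highest in NK cells at 431 CPM (95% interval 399 to 465), where 55.5% of the cells held a UMI. CD8+ T cells held 182 CPM (175 to 189; 24.6% of cells) and CD4+ T cells 61.6 CPM (10.3% of cells), which was 36.7 CPM without library 9. Gamma delta T cells held 5 UMIs and Foxp3+ T cells 1 UMI of Prf1, which were within the background. Among the 11 libraries with at least 30 CD8+ T cells, Prf1 ranged from 44.0 CPM in library 10 through a median of 150 to 491 CPM in library 3. In NK cells, the 4 libraries with at least 30 of them, 1, 5, 6 and 7, held 223, 621, 444 and 471 CPM, against 150, 169, 74.4 and 171 CPM in the CD8+ T cells of the same libraries. NK cells were thus higher in 4 of 4 libraries with no overlap, and 2.37-fold higher in the pool. Across all libraries the CD8+ T cells of library 3 reached the level of NK cells.

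Gzmb was the member found in the most CD8+ T cells, and was also found in Foxp3+ T cells. Its CPM was 1079 in NK cells (1028 to 1132; 60.8% of cells), 602 in Foxp3+ T cells (502 to 716; 29.7%), 599 in CD8+ T cells (586 to 611; 46.5%), 203 in gamma delta T cells (148 to 270; 27.3%) and 182 in CD4+ T cells (19.0%). Within this order, the intervals of Foxp3+ and CD8+ T cells overlapped, and so did those of gamma delta and CD4+ T cells. The first overlap depended on the gates and on library 8. Foxp3+ T cells held 157 CPM of Gzmb with stricter gates, where CD8+ T cells held 647 CPM, 322 CPM against 570 CPM without cells holding C1q UMIs, and 336 CPM against 583 CPM without library 8. Across the 11 libraries, Gzmb in CD8+ T cells varied least of the abundant members, from 306 to 915 CPM with a median of 644. In NK cells it was 559, 1464, 1266 and 954 CPM in libraries 1, 5, 6 and 7. Each was above the CD8+ T cells of its library, but the pooled difference was 1.80-fold and did not reach 2-fold.

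The Gzmb of Foxp3+ T cells rested on 11 of 37 cells (95% interval of the share 15.9 to 47.0%) with 127 UMIs, of which library 8 gave 89 in 6 cells and library 2 gave 31 in 2 cells. One cell alone held 43 UMIs. None of the 37 cells held a UMI of both Gzmb and Prf1. Gzmm had 1 UMI, and Gzma, Gzmc, Gzmd, Gzme, Gzmf, Gzmg and Gzmk had 0 UMIs in this gate, which allows up to 14.2 CPM, or 8.11% of cells with a UMI. Compared with CD4+ T cells, Gzmb was 3.305-fold higher, but with stricter gates it was lower, at 157 against 179.5 CPM. Gzmk was at least 11.3-fold and Gzma at least 5.05-fold lower than in CD4+ T cells, bounds that fell to 1.81-fold and 3.23-fold without library 8. No library held 30 Foxp3+ T cells, so these differences have no check across libraries.

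Gzma, which encodes a tryptase, was highest in NK cells. It reached 3222 CPM (3133 to 3313) in NK cells, where 58.6% of the cells held a UMI, and 278 CPM (270 to 287) in CD8+ T cells, where 416 of 3771 did. CD4+ T cells held 71.8 CPM, with 78.7% of the UMIs in 10 cells, and 46.8 CPM without library 11. Gamma delta T cells held 48.5 CPM from 11 UMIs in 4 cells, which was 31.9 CPM without library 6, 28.5 CPM without library 8 and 0 without cells holding C1q UMIs. The NK cells of libraries 1, 5, 6 and 7 held 3481, 1354, 1544 and 6642 CPM, and the CD8+ T cells of the same libraries 44.5, 69.8, 68.0 and 573 CPM. NK cells were higher in each of the 4 libraries, 11.6-fold in the pool, and the lowest NK value exceeded the highest of these CD8+ T cell values. Over 11 libraries, Gzma in CD8+ T cells ranged from 11.4 CPM in library 3 through a median of 186 to 619 CPM in library 12.

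Gzmk, the chromosome 13 neighbour of Gzma, differed from it in NK cells and was highest in CD8+ and CD4+ T cells. CD8+ T cells held 187 CPM (181 to 195; 28.1% of cells) and CD4+ T cells 160 CPM (20.4% of cells). NK cells held 8 UMIs of Gzmk in 6 of 418 cells (5.22 CPM), within the background. Gamma delta T cells held 3 UMIs (13.2 CPM), but 118 CPM, above background, where cells with Trac UMIs were not left out of their gate. The values of libraries 1, 5, 6 and 7 were 98.4, 45.3, 45.3 and 240 CPM in CD8+ T cells and 17.2, 4.42, 0 and 0 CPM in NK cells, where 3 UMIs would be 33.3 and 16.3 CPM in libraries 6 and 7. CD8+ T cells were higher in 4 of 4 libraries and 35.9-fold higher in the pool (18.4-fold without library 8 and 54.5-fold without library 9). A cell with Gzmk held 2.57 UMIs on average. In CD8+ T cells Gzmk ranged from 45.3 CPM in library 5 through a median of 115 to 572 CPM in library 8, where 82.3% of the cells held a UMI. Library 8 was also the highest in CD4+ T cells, at 321 CPM against 7.01 to 78.0 CPM in the other 7 libraries with at least 30 of those cells. Without library 8, the pooled Gzmk level was 103 CPM in CD8+ and 48.0 CPM in CD4+ T cells.

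Of the Gzmc to Gzmg genes beside Gzmb, Gzmc was found in 41.4% of the pooled NK cells and the others lay in a small part of the cells. The share of NK cells with Gzmc was 16.7, 60.9, 48.1 and 17.6% in libraries 1, 5, 6 and 7. In the pooled NK cells Gzmc was the most abundant member, at 5864 CPM (5743 to 5986) with 8983 UMIs in 173 of 418 cells. Its median was 26 UMIs per cell with any, with up to 909 in 1 cell. Of the 4 libraries with at least 30 NK cells, Gzma was higher than Gzmc in libraries 1 (3481 against 2166 CPM) and 7 (6642 against 4031 CPM). CD8+ T cells held 200 CPM (192 to 207) of Gzmc in 10.8% of the cells. The NK cells of libraries 1, 5, 6 and 7 held 2166, 10299, 5731 and 4031 CPM, against 29.0, 1006, 132 and 24.5 CPM in the CD8+ T cells of these libraries. NK cells were higher in all 4 libraries without overlap, 29.4-fold in the pool and 61.4-fold without library 5. Gzmc was found in 2 UMIs of gamma delta T cells and in 14 CD4+ T cells (78 UMIs). CD4+ T cells held 32 UMIs of Gzmf, 11 of Gzmd, 4 of Gzme, 4 of Gzmm and 0 of Gzmg, and gamma delta T cells 0 of Gzmd, Gzme, Gzmf, Gzmg and Gzmm.

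Gzmf was the leading gene of this group in CD8+ T cells and Gzmc in NK cells. CD8+ T cells held 525 CPM of Gzmf (513 to 537) in 10.5% of the cells, with a median of 7 and up to 338 UMIs per cell with any. In UMIs, Gzmf exceeded Gzmc 2.63-fold in CD8+ T cells, and Gzmc exceeded Gzmf 7.12-fold in NK cells. Library 5 set the size of the second ratio, which was 54.7-fold without it, from 4319 and 79 UMIs. Both are counts of transcript ends and were not scaled by length. Gzmf had more UMIs than Gzmc in 10 of 11 CD8+ T cell libraries, all but library 10, and in 0 of 4 NK cell libraries. NK cells of libraries 1, 5, 6 and 7 held 0, 2610, 866 and 0 CPM of Gzmf, where 3 UMIs would be 25.8 and 16.3 CPM in libraries 1 and 7. The difference in Gzmf between NK and CD8+ T cells thus had no common direction, with NK cells higher in 2 of 4 libraries. In the 6 libraries without Y-linked UMIs alone, NK cells held no Gzmf and the gene was called higher in CD8+ T cells, a call that rested on library 7 as the only one of them with at least 30 NK cells.

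Gzmd, Gzme and Gzmg were the rarest of the group. Gzmd was found at 57.7 CPM in 87 CD8+ T cells and at 503 CPM in 37 NK cells, and Gzme at 45.5 CPM in 91 CD8+ T cells and 236 CPM in 30 NK cells. Without library 5 the NK cells held 89.0 CPM of Gzmd and 48.2 CPM of Gzme, and without library 3 the CD8+ T cells held 25.7 CPM of Gzme. Gzmg had 82 UMIs in 13 CD8+ T cells and 241 UMIs in 15 NK cells, with 96.3% and 97.9% of them in 10 cells, and its level in NK cells was 157 CPM with and 9.27 CPM without library 5. These transcripts are alike at their ends. Of the 60-base windows in the last 500 bases of each transcript, 13.6% of those of Gzmd, 11.6% of Gzme, 9.52% of Gzmg and 4.99% of Gzmf were also in another granzyme, but none of those of Gzmc, Gzma, Gzmb, Gzmk, Gzmm or Prf1. How the counting divided reads among Gzmd to Gzmg is therefore uncertain.

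Together, Gzmc to Gzmg were found in 581 CD8+ T cells (15.4%) and 175 NK cells (41.9%). At least 2 of the 5 genes were found in 267 CD8+ T cells (7.08%) and 51 NK cells (12.2%), and all 5 in 11 CD8+ T cells and 9 NK cells. The UMIs were concentrated, as the 38 CD8+ T cells with the most held 45.7% of the 12105 UMIs of the group. Gzmb was found in 80.6% of the CD8+ T cells with any of the 5 genes and in 40.3% of those without (median UMIs 4386 and 2714.5). Library 5 gave 59.95% of the group's UMIs in CD8+ T cells and 60.8% in NK cells. Without library 5, pooled Gzmf in CD8+ T cells was 242 CPM, Gzmc 65.2 CPM, and Gzmf in NK cells 73.2 CPM.

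Gzmm had 76 UMIs in 57 CD8+ T cells and 2 UMIs in NK cells. Its 5.23 CPM in CD8+ T cells (4.12 to 6.55) was above the upper ends in macrophages (0.271 CPM) and neutrophils (2.64 CPM) but not above that in B cells (6.62 CPM, from 0 UMIs). Of its 328 UMIs in kept cells, 83 lay in the 5072 cells of the gates, and 163 in the 95744 barcodes with myeloid or B cell UMIs and no T or NK cell UMIs. The gates thus held 25.3% of its UMIs, against 50.9 to 63.3% for the other members.

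**Figure D2:**
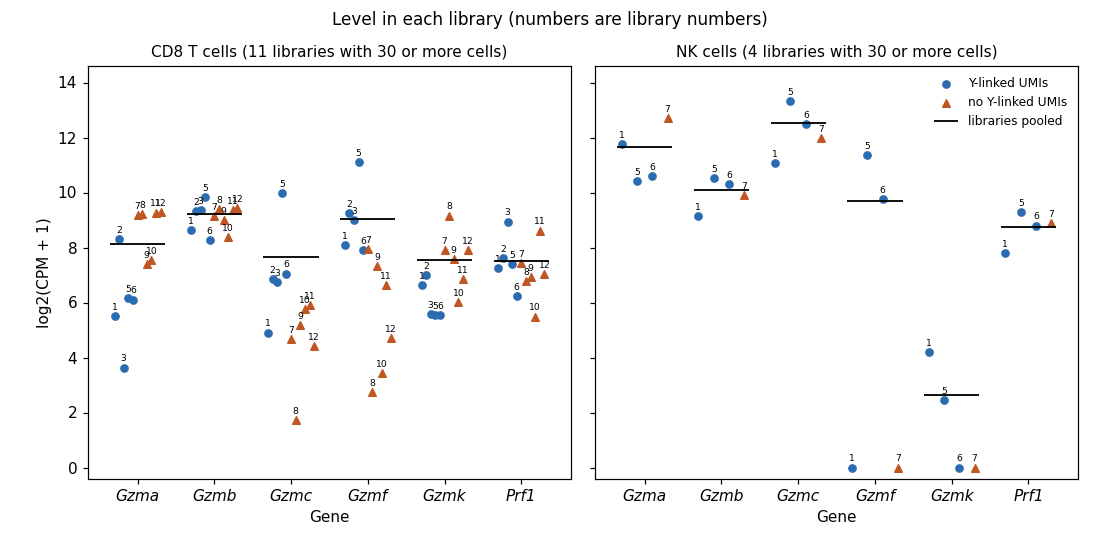
Level of 6 members in each library on a log2(CPM + 1) scale (y axis), for CD8+ T cells in 11 libraries and NK cells in 4 libraries with at least 30 cells (x axis). Blue circles are libraries with Y-linked UMIs, orange triangles those without, and black lines the pooled level. Gzmb varied least in CD8+ T cells (306 to 915 CPM) and Gzmc and Gzmf most (2.29 to 1006 and 5.72 to 2221 CPM).

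Gzmc and Gzmf were highest in other libraries than Gzma and Gzmk. In CD8+ T cells, Gzmc ranged from 2.29 CPM in library 8 through a median of 53.7 to 1006 CPM in library 5, and Gzmf from 5.72 CPM in library 8 through 238 to 2221 CPM in library 5. Library 8 was the highest for Gzmk and library 5, with library 6, the lowest. Gzmf in the CD8+ T cells of the 5 libraries with Y-linked UMIs was 238 to 2221 CPM (median 512) and of the 6 without 5.72 to 247 CPM (median 61.9). For Gzma the values were 11.4 to 318 CPM (median 68.0) with and 169 to 619 CPM (median 584) without, and for Gzmk 45.3 to 128 CPM (median 46.4) and 63.5 to 572 CPM (median 213). The ranges overlapped for each of these genes. Gzmb (medians 644 and 605 CPM) and Prf1 (169 and 125 CPM) differed less. These values were not divided by treatment or mouse.

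Over all genes with at least 20 UMIs in both gates together, a gene was called where the pooled CPM differed at least 2-fold and every library with at least 30 cells of both gates differed the same way. By this rule 3 of 10 members, Gzma, Gzmc and Prf1, were higher in NK than in CD8+ T cells, against 1.58% of the 11226 genes tested. Gzmk was higher in CD8+ T cells, against 6.16% of all genes. Without library 5, the 2 members Gzma and Gzmc were called higher in NK cells and Prf1 was not, and without library 1 Gzmd and Gzme were called as well, which made 5. The remaining members were not called with all libraries. Gzmd was 8.71-fold and Gzme 5.18-fold higher in NK cells in the pool but higher in 3 of 4 libraries, Gzmf 1.57-fold and Gzmg 27.9-fold in 2 of 4, and Gzmm, with 2 UMIs in NK cells, was higher in CD8+ T cells in 3 of 4. Library 5 carried much of these folds. Without it Gzmd was 2.07-fold, Gzme 1.41-fold and Gzmg 1.77-fold higher in NK cells, and Gzmf was 3.31-fold higher in CD8+ T cells, the opposite direction. Without library 3, Gzmd was 13.9-fold, Gzme 9.82-fold and Gzmg 93.1-fold higher in NK cells. The median log2 ratio of NK to CD8+ T cells was 1.81 over the 10 members and −0.06 over all genes. With cells thinned to 1000 UMIs, the share with a UMI was 49.3% in NK and 7.47% in CD8+ T cells for Gzma, 43.6% and 29.5% for Gzmb, 33.1% and 10.5% for Prf1, and 0.525% and 14.5% for Gzmk.

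Compared with CD4+ T cells, 2 of 10 members were called higher in CD8+ T cells, Gzmb (3.29-fold) and Gzmf (54.6-fold), each higher in 8 of 8 libraries, against 0.894% of 11415 genes. Gzmf was not called without cells holding C1q UMIs, where 1 member, Gzmb, was called. The pooled Gzmf was then still 215-fold higher in CD8+ T cells (477 against 2.22 CPM). Without the 10% of cells with the most UMIs, Gzmf was called and Gzmb was not, although Gzmb stayed higher in the pool. Library 5 held 30 of the 32 Gzmf UMIs of CD4+ T cells, and without it CD4+ T cells held 0.635 CPM from 2 UMIs, against 242 CPM in CD8+ T cells. None was called higher in CD4+ T cells, against 1.32% of all genes. Gzma (3.88-fold), Gzmc (8.52-fold) and Prf1 (2.96-fold) were higher in CD8+ T cells in 7 of 8 libraries. Without library 8, 5 members were called (Gzmb, Gzmc, Gzme, Gzmf and Gzmk), without library 5, 4 (Gzma, Gzmb, Gzmf and Gzmm), and without library 9, 3 (Gzmb, Gzmf and Prf1). Prf1 was then 5.08-fold higher. It was 13.98-fold higher in libraries with Y-linked UMIs, 1.87-fold in those without, and 1.79-fold without CD8+ T cells holding NK receptor UMIs. Gzma was 2.43-fold higher without library 8, and Gzmc 5.26-fold higher without library 5. Gzmk was higher in the CD8+ T cells of each of the 8 libraries, but 1.17-fold in the pool. In CD4+ T cells Gzmb was 61.7 to 266 CPM over these libraries, below the CD8+ T cells of its own library each time. The CD4+ gate held the Treg genes Ikzf2, Il2ra and Ctla4 (Ctla4 in 57.0% of cells), and the part of cells in which Foxp3 was missed was not tested. Gamma delta T cells, which no library held in 30 cells together with CD8+ T cells, had 2.95-fold less Gzmb and 5.74-fold less Gzma than CD8+ T cells, and at least 39.7-fold less Gzmf. These folds depended on the gate. Without the requirement of no Trac UMI, Gzmb was 420 CPM in gamma delta T cells (1.43-fold less) and Prf1 58.8 CPM. Gzmk was then 118 CPM there (1.59-fold less, in place of 14.2-fold). Without cells holding C1q UMIs Gzmb was 382 CPM. Without library 6, Gzmb was 128 CPM (5.13-fold less) and Gzma 9.99-fold less. Without library 5 the bound for Gzmf was at least 15.2-fold less.

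Of 25 other genes of the granule pathway, 24 had enough UMIs. Serpinb9, an inhibitor of granzyme B in the cells that make it, was called higher in NK cells (2.02-fold), as was Serpinb6b of the same serpin family (2.18-fold), 2 of 24 against 1.58% of all genes. Prdm1, a transcription factor of effector lymphocytes, was called higher in CD8+ T cells (2.70-fold), 1 of 24 against 6.16% of all genes. None of the 24 was called in either direction between CD8+ and CD4+ T cells, where 0.894% and 1.32% of all genes were. The median log2 ratio of these genes was 0.03 for NK over CD8+ T cells and −0.01 for CD8+ over CD4+ T cells, near that of all genes (−0.06 and −0.03), while that of the members was 1.81 over 10 and 2.12 over 9 genes. The first lies midway between Prf1 (1.24) and Gzme (2.37) and depends on library 5. Without it Gzme was 1.41-fold and Gzmg 1.77-fold higher in NK cells, and Gzmf was 3.31-fold higher in CD8+ T cells. The second median leaves out Gzmg, with 0 UMIs in CD4+ T cells, and is the value of Gzmm, which had 4 UMIs there.

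NK cells carried several members at once more often than CD8+ T cells. At least 1 member was found in 90.4% of NK cells and at least 2 in 74.2%, against 67.8% and 39.1% of CD8+ T cells, 37.5% and 14.1% of CD4+ T cells and 31.8% and 10.2% of gamma delta T cells. Foxp3+ T cells held 1 member in 35.1% and never 2. Thinned to 1000 UMIs, at least 2 members were found in 55.1% of NK and 20.1% of CD8+ T cells. Gzmb and Prf1 together were found in 40.0% of NK cells, 16.7% of CD8+ T cells, 4.22% of CD4+ T cells and 3.41% of gamma delta T cells. A granzyme without Prf1 was found in 43.2% of CD8+ T cells and 34.9% of NK cells, and Prf1 without a granzyme in 4.75% and 2.39%. At this depth a missing UMI does not show a missing transcript.

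**Figure D3:**
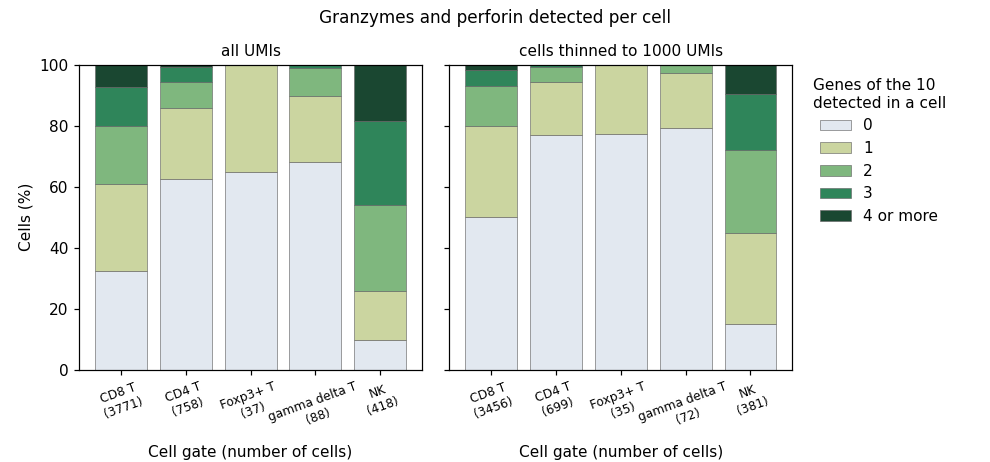
Stacked bars of the percentage of cells (0 to 100%) in each of the 5 gates with 0, 1, 2, 3 or at least 4 of the 10 members detected, with all UMIs and with each cell thinned to 1000 UMIs. NK cells had at least 2 members in 74.2% of the cells with all UMIs and 55.1% after thinning, CD8+ T cells in 39.1% and 20.1%.

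Co-detection in single cells was described by a Mantel-Haenszel odds ratio over strata of library and 5 bins of UMIs per cell, since deep cells hold more of any pair. An odds ratio above 1 means that a pair was found together more often than its single frequencies give within a stratum. Pairs expected in at least 20 cells were rated, which left 24 of 45 pairs in CD8+ T cells and 13 in NK cells. In CD8+ T cells 18 of 24 pairs were above 1 and 6 below (0.490 to 21.1, median 4.01). In NK cells 11 of 13 were above 1 and 2 below (0.431 to 11.9, median 2.45).

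Gzmb and Prf1 were found together in 631 CD8+ T cells, with an odds ratio of 2.34. Prf1 was found in 35.97% of CD8+ T cells with Gzmb and in 14.7% of those without. The ratio was above 1 in 9 of 10 libraries (0.899 to 4.75). In NK cells it was 2.45. Gzmk was found with Gzmb in 624 CD8+ T cells (odds ratio 1.67, above 1 in 7 of 10 libraries, 0.898 to 4.80), but was found with Prf1 as often as the single frequencies give (0.982, above 1 in 4 of 10).

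Gzma was linked to Gzmb in both cell types and set apart from Gzmc in both. Gzma and Gzmb had an odds ratio of 3.67 in CD8+ T cells (306 cells, above 1 in 8 of 8 libraries, 2.49 to 9.05) and 3.41 in NK cells (164 cells, above 1 in 3 of 3 libraries, 1.59 to 7.17). Without library 5 the NK cell value was 7.63. Gzma with Gzmc gave 0.614 in CD8+ T cells and 0.431 in NK cells (66 cells, below 1 in both libraries that could be rated). For CD8+ T cells this pair was not examined library by library. Gzma was found with Gzmk in CD8+ T cells at 2.27, above 1 in 5 of 5 libraries.

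The chromosome 14 genes Gzmc to Gzmf were found together in the same cells. In CD8+ T cells the odds ratio was 21.1 for Gzmc with Gzmd, 19.6 for Gzme with Gzmf, 17.5 for Gzmd with Gzmf and 12.1 for Gzmc with Gzmf, which were found together in 236 cells, above 1 in 3 of 3 libraries. In NK cells Gzmb with Gzmc was above 1 in 2 of 3 libraries (0.801 to 6.15). There 36 of 37 cells with Gzmd and 27 of 28 cells with Gzmf also held Gzmc (11.9 and 11.2). How reads were divided among Gzmd to Gzmg was not tested for these pairs, while Gzmc shared no 60-base window of its transcript end with them. Gzmb with Gzmd gave 14.5 and Gzmb with Gzmc and with Gzmf each 5.89 in CD8+ T cells. Prf1 had ratios of 8.34 with Gzmd, 6.04 with Gzme, 4.35 with Gzmf and 3.43 with Gzmc. Against this, Gzmk was below 1 with Gzmf (0.490, above 1 in 1 of 5 libraries) and with Gzmc (0.554).

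**Figure D4:**
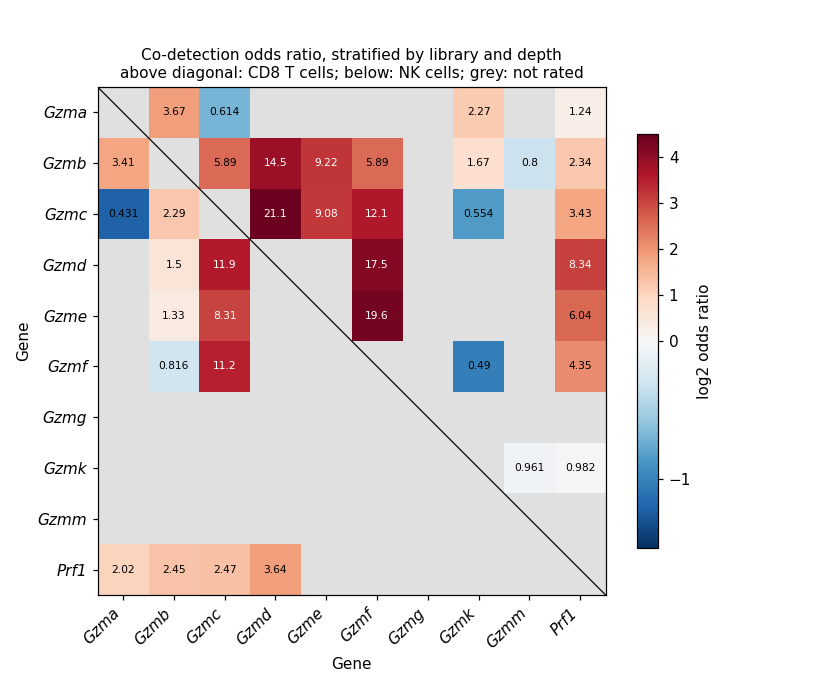
Grid of the 10 members against each other, coloured by the stratified odds ratio of co-detection, above the diagonal for CD8+ T cells and below it for NK cells, with grey for pairs that were not rated. In CD8+ T cells the ratios among Gzmc to Gzmf reached 21.1, and Gzmf with Gzmk was lowest at 0.490. In NK cells Gzma with Gzmc was lowest at 0.431.

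CD8+ T cells were then divided by genes of T cell state, which are not members. Tcf7, a transcription factor of stem-like and memory T cells, was found in 386 CD8+ T cells (median UMIs 3565, against 2854 in the others). In these cells Gzmb was 301 CPM against 641, Prf1 72.5 against 198 and Gzmf 68.6 against 589. Each was higher with Tcf7 in 0 of 4 libraries and lower in the pool, 2.13-, 2.72- and 8.59-fold. Gzmd had 1 UMI in the cells with Tcf7 and 65.7 CPM in the others. Gzmk was 248 CPM with and 179 CPM without Tcf7, 1.39-fold higher and higher in 3 of 4 libraries, and Gzmm was 12.8 against 4.16 CPM, also in 3 of 4.

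Havcr2, which encodes the inhibitory receptor TIM-3, was found in 722 CD8+ T cells (median UMIs 5101.5, against 2506). Prf1 was 310 CPM with Havcr2 and 126 without, 2.45-fold higher and in 6 of 8 libraries, and after thinning to 1000 UMIs it was found in 18.1% and 8.51% of the cells. Gzmb was 741 against 536 CPM, Gzmc 331 against 142 and Gzmf 935 against 346, each higher in 7 of 8 libraries. Gzmd and Gzme were 7.10- and 6.98-fold higher, each in 5 of 8 libraries. Gzmk was 132 CPM with and 212 CPM without Havcr2, and higher with it in 0 of 8 libraries. Gzma was 183 against 320 CPM, and higher in 2 of 8.

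Of the CD8+ T cells, 1059 held at least 2 UMIs of 6 proliferation genes (median UMIs 4758, against 2369). Gzma was 172 CPM in them and 358 CPM in the others, and higher in 1 of 9 libraries. Gzmk was 122 against 236 CPM, higher in 0 of 9, and Gzmb 555 against 632 CPM, higher in 1 of 9. Gzmc (269 against 147 CPM) was higher in 6 of 9 and Prf1 (209 against 162 CPM) in 5 of 9 libraries.

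**Figure D5:**
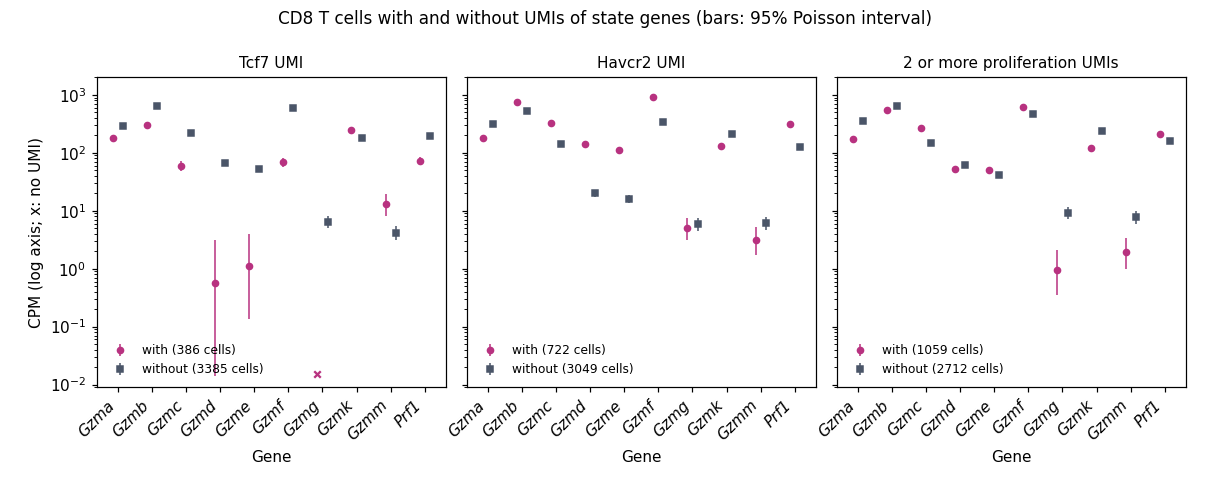
CPM of each member on a log axis in CD8+ T cells with (circles) and without (squares) a UMI of Tcf7, a UMI of Havcr2, or at least 2 proliferation UMIs, pooled over libraries. Bars are 95% Poisson intervals and a cross marks 0 UMIs. Gzmb, Prf1 and Gzmf were lower with Tcf7 (68.6 against 589 CPM for Gzmf) and higher with Havcr2, whereas Gzmk was higher with Tcf7 (248 against 179 CPM) and lower with Havcr2.

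NK receptor genes that define the NK gate (Ncr1, Klrb1c, Klre1) were found in 907 CD8+ T cells (24.1%, median UMIs 4696 against 2474), a division made after the granzyme levels of NK cells had been seen. Prf1 was 315 CPM in these cells and 110 CPM in the others, Gzmb 750 against 516 and Gzmf 644 against 460, each higher in 9 of 9 libraries. Gzmk was 146 against 210 CPM, higher in 0 of 9 libraries, and Gzma was 384 against 221 CPM but higher in 3 of 9.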

How the data were processed

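Per the labels and methods, CD45+ cells were isolated with CD45 TIL microbeads and processed with the 10x Genomics 3' v3 kit. The authors deposited UMI counts for all 12 libraries in 1 matrix, without normalization. Its header names Cell Ranger 3.0.2, and the submitters' processing notes name Cell Ranger 2.1.1, Seurat and mm10. The alignment settings were not stated in the sources used. 3' counts hold 1 tag per transcript end, so they are not scaled by length. The kept cells of a library numbered 3330 to 37413, and libraries held 21649947 to 158760328 UMIs.

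Cells with over 200 and under 5000 genes and at most 10% mitochondrial UMIs (13 genes) were kept, as the methods state. No doublet caller was run. Barcodes with UMIs of Adgre1, Csf1r, Csf3r or Cd79a were left out of the gates instead. Each gate then needed UMIs of its own lineage genes (Cd3d, Cd3e or Cd3g with Cd8a or Cd8b1, with Cd4, with Foxp3 or with Trdc, and at least 2 of Ncr1, Klrb1c and Klre1 UMIs without CD3 genes for NK cells). T cell gates excluded each other's defining genes, apart from Cd4 in Foxp3+ T cells. The gamma delta gate also excluded Trac and Ncr1 UMIs, and the NK gate Cd8b1 and Cd4 UMIs. NK receptor UMIs were not excluded from CD8+, CD4+ or Foxp3+ T cells. CPM of summed UMIs has exact Poisson and shares of cells exact Clopper-Pearson intervals at 95%, and a level of 0 is bounded by 3 UMIs, while the background rule uses the upper ends of the Poisson intervals. As no sample label names the library numbers, and order and cell numbers were not used in place of labels, the matrix was treated as 1 pooled sample and no p-value is given. EZH2i and vehicle were not compared. Comparisons between gates, the stratified odds ratio, thinning to 500 or 1000 UMIs and the alternatives were computed with python 3.11.15, numpy 2.4.6, scipy 1.17.1 and pandas 2.3.3. The fold call, the odds ratio with 10 bins of UMIs per cell and thinning to 500 UMIs were tested on simulated data. The odds ratio with the 5 bins used here and the other alternatives were not. Figures used matplotlib 3.10.9. Promoter windows are from RefSeq (all 10 genes matched, Gzmm with 2 windows), aligned with biopython 1.88, and 99.6% of gene identifiers were in GENCODE M21. The naming rule took all 10 members, pathway genes where called, and the 5 genes with the most similar pattern for Gzma, Gzmb, Gzmc, Gzmk and Prf1. The members and lists were chosen with earlier results of these data known.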

Additional observations from a re-analysis of the deposited data

Results flagged for a closer look

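Barcodes outside the limits on genes and mitochondrial UMIs also held these transcripts, above the 3-UMI floor, although the report does not use them. The 10 members summed to 1403 CPM in 3 CD8+ T cell barcodes with 5000 or more genes (floor 28.2 CPM), 1928 CPM in 140 CD8+ T cell barcodes with over 10% mitochondrial UMIs (floor 11.1 CPM) and 7510 CPM in 8 NK cell barcodes with over 10% mitochondrial UMIs (floor 164 CPM). The 1 NK cell barcode with 5000 or more genes held 0 UMIs of the 10 members. The kept cells held 2085 CPM in CD8+ T cells and 12321 CPM in NK cells.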

How the results depend on the processing

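Under other settings, counts of members stayed within 1.5 times and odds ratios within their 95% interval in 131 values and left these limits in 30, and none of the 3 odds ratios examined crossed 1. Pooled CPM values stayed within their interval in 383 cases and left it in 177. The cause of the changes was not tested. Members called higher in NK than CD8+ T cells (3) were 5 with stricter gates, with at most 5% mitochondrial UMIs, in libraries without Y-linked UMIs or with at least 50 cells of both gates, and 7 with C1q UMIs excluded, but 2, without Prf1, with no exclusion of myeloid and B cell UMIs or with a limit of 3-fold. The 7 included Gzmg, which had NK cell UMIs in libraries 5 and 6 alone, so no other library entered that check. Members called higher in CD8+ T than NK cells (1) were 2 without the exclusion of myeloid and B cell UMIs, without the 10% of cells with the most UMIs, or without CD8+ T cells with NK receptor UMIs, and 3 in libraries without Y-linked UMIs. Of the libraries without Y-linked UMIs, only library 7 held at least 30 NK cells, so the check across libraries was library 7 alone. Its NK cells held 8 UMIs each of Gzmd and Gzme. Members called higher in CD8+ than CD4+ T cells (2) were 5 with stricter gates, 1 with C1q UMIs excluded or without the 10% of cells with the most UMIs, and 6 and 4 in libraries with and without Y-linked UMIs. Members above background in gamma delta T cells (2) were 1 with C1q UMIs excluded, with at most 5% mitochondrial UMIs or in libraries with Y-linked UMIs, and 4 without the Trac requirement or without B cells as background, and in NK cells (8) they were 4 in libraries without Y-linked UMIs. The odds ratio of Gzmb with Prf1 in CD8+ T cells (2.34) was 1.77 with C1q UMIs excluded, 1.91 in libraries without Y-linked UMIs, 3.25 without strata and 1.75 thinned to 500 UMIs. That of Gzmb with Gzmk (1.67) was 1.997 without strata, and 1.16 and 1.34 thinned to 500 and 1000 UMIs. That of Gzma with Gzmb in NK cells (3.41) was 6.32 with at most 5% mitochondrial UMIs, 5.94 in libraries without Y-linked UMIs and 1.87 without strata.

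With each library left out in turn, members above background numbered 8 in CD8+, 4 to 5 in CD4+, 1 in Foxp3+ and 2 in gamma delta T cells and 7 to 8 in NK cells. Gzmd to Gzmg in NK cells rested mainly on libraries 5 and 6, and these were not left out together. Members called numbered 2 to 5 for NK over CD8+ T cells, 1 to 2 for CD8+ T over NK cells (2 without library 5) and 2 to 5 for CD8+ over CD4+ T cells. The odds ratios were 2.13 to 2.63, 1.52 to 1.82 and 3.08 to 7.63, the last without library 5. Without the 10% of cells with the most UMIs, NK cells held 149 CPM of Gzmd, 55.1 of Gzme, 489 of Gzmf and 11.6 of Gzmg, and Gzme was 1.22-fold and Gzmf 1.01-fold higher than in CD8+ T cells. The NK gate without Trac or Cd8a UMIs the CD8+ gate without NK receptor UMIs and the omission of a background gate were chosen after seeing the data. Foxp3+ against CD4+ T cells and gamma delta against CD8+ T cells gave no count of called members, as no library had 30 cells of both gates. No paired analysis was run, because the matrix was treated as 1 pooled sample, and no result comes from a test. Gates were compared within libraries by direction alone. The number of cells limits the 37 Foxp3+ and 88 gamma delta T cells most, where 0 UMIs allow 14.2 and 13.2 CPM.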

Other observations

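Over 23 sums of a library and a gate with at least 30 cells, the genes with the pattern most like each member were listed by Pearson's r of log2(CPM + 10), as a description. These sums share libraries, depth and gates, and the order follows cell type as well as library. For Prf1 they were Nedd4, a ubiquitin ligase (r = 0.95), Sfxn1 (0.83), Ugcg (0.82), AC163354.1 (0.82) and Klre1 (0.81), and for Gzmb Ugcg (0.85), Klrc2 (0.83), Klre1 (0.83), Runx3 (0.80) and Xcl1 (0.78). For Gzma they were Itgb1 (0.86), Cd7 (0.85), Ifitm10 (0.84), Evl (0.84) and Zfp512 (0.83). Gzmc was most like Vegfa (0.90), Klrb1c (0.90), Styk1 (0.88), Serpinb9 (0.87) and Klra8 (0.87), and Gzmk most like Ms4a6b (0.89), Ehd3 (0.88), Grap2, Lpxn (0.87) and Asb13 (0.86). Klre1 and Klrb1c are genes of the NK gate.

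Gzmn, the remaining granzyme gene between Gzmg and Gzmf, had 0 UMIs in the 5 gates. In neutrophils, all 122 UMIs of Gzmc lay in 1 barcode. Among the 1073 barcodes with 200 or fewer genes, Gzmf reached 16.3 CPM from 14 UMIs, and the other members stayed at or below 6.98 CPM.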
